A study of Homo sapiens with 8 samples.

Results

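The 10 focal adhesion genes described here, the tyrosine kinases PTK2 and SRC, integrin-linked kinase (ILK) and the adaptors PXN, VCL, TLN1, ZYX, PARVA, BCAR1 and TGFB1I1, were followed in RNA sequencing of 143B cells. They are 10 of the 54174 gene symbols in the deposited table, taken by name, and all 10 had a value in every library and were among the 9016 genes tested. 143B is an established human osteosarcoma cell line. Cells labelled NELL1 knockout (4 libraries, 1 to 4) had been transfected transiently with a NELL1 knockout plasmid and control cells (4 libraries, 1 to 4) with the vector plasmid, both for 48 h, and the labels call the 4 libraries of each group biological replicates. The labels give the knockout cells as transfected cultures, with no clone and no selection step named. NELL1 is a secreted matrix glycoprotein that can bind cells through integrins, and the title of the series asks how it regulates the matrisome, the genes of the extracellular matrix.

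Focal adhesions are the protein plaques through which a cell holds on to its matrix. Integrins bind the matrix outside the cell, talin (TLN1) binds the integrin tail inside and joins it to actin, and vinculin (VCL) strengthens that link. Paxillin (PXN) and its relative Hic-5 (TGFB1I1) are scaffolds on which focal adhesion kinase (FAK, encoded by PTK2) and SRC phosphorylate partners such as p130Cas (BCAR1). ILK, which despite its name is regarded as a pseudokinase, forms a complex with PINCH and with alpha-parvin (PARVA), and zyxin (ZYX) marks mature, tension-bearing adhesions. In osteosarcoma, as in other sarcomas, this machinery is studied for its part in migration and in survival after detachment.

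Values are the deposited log2 values, quantile normalized between libraries, so a difference of 1 is a doubling relative to the rest of the transcriptome. The unit before the logarithm is not given in the sources used here, so levels are compared between libraries and not between genes. A gene was called changed when its limma p-value, adjusted by the Benjamini-Hochberg method over all 9016 tested genes, was under 0.05. NELL1 itself lay near the bottom of the range, at -6.97, -6.97, -4.53 and -5.00 in the controls and at -4.82, -5.87 and -6.96 in knockout libraries 1, 2 and 4, with a blank in knockout library 3 (difference -0.01, exact two-sided permutation test, p = 1, smallest possible p = 0.0286), so it does not check the labels. Knockout libraries 1 and 2 resembled each other closely, as did 3 and 4 (SD across genes of the difference between the members of a pair, 0.12 and 0.13), while the pairs stood 0.46 to 0.50 apart, more than any knockout library from any control (0.36 to 0.45). The changes of the 10 genes are therefore also given for the set of replicates 1 and 2 and for the set of 3 and 4. Of 10 osteoblast lineage markers only SPP1 was high enough to be tested, RUNX2 lay between 0.05 and 0.43, and SP7 and IBSP were blank throughout. Of the leukocyte markers PTPRC and CD3E were blank throughout, whereas CD68 lay between 5.54 and 5.90 (not called) and LCP1 between -0.17 and 1.95. Of the mesenchymal markers tested VIM fell by 0.43 (limma adjusted p = 0.0425) and CDH2 differed by 0.08 (0.519). Of the epithelial markers tested KRT8 rose by 0.38 (limma adjusted p = 0.0175), while KRT18 (0.19, adjusted p = 0.1004) and EPCAM (-0.32, adjusted p = 0.345) were not called. The endothelial marker TIE1 fell by 0.45 (limma adjusted p = 0.00762), and the other 4 of that list were at -0.82 or below wherever they had a value. The part of these markers in the results that follow was not tested.

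Promoter sequence from RefSeq (GRCh38.p14) was searched for 7 of the 10 genes: PXN, VCL, TLN1, ZYX, ILK, BCAR1 and TGFB1I1. No window of PTK2, SRC or PARVA was searched. The chromosome of PTK2 was left out of the search among the 10 genes by choice, so no motif result is given for PTK2. Windows of 250 bases before each annotated start (14 windows, some genes having several starts) were searched on both strands for 4 motifs: the CArG box bound by SRF, the TEAD motif GGAATG, the AP-1 motif TGACTCA and the SP/KLF motif GGGCGG. VCL is shown because its expression took opposite directions in the close knockout pairs, and PXN and TGFB1I1 because these paralogs differed in how steady their values were. Capitals mark motif matches, also where the match lies on the opposite strand. The VCL stretch is chr10:73997866-73998113 on the plus strand, just before the start of the gene. The PXN stretch is chr12:120250164-120250413 on the minus strand, before a downstream start within the gene. For TGFB1I1, 30 bases around the CArG box are given, chr16:31473144-31473173 on the plus strand, where the box begins 51 bases before the third annotated start.
VCL: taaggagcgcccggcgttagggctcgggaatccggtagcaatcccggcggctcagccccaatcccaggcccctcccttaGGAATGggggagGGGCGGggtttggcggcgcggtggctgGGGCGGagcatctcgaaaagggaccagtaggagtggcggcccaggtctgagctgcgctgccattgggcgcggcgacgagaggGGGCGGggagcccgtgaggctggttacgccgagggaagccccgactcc
PXN: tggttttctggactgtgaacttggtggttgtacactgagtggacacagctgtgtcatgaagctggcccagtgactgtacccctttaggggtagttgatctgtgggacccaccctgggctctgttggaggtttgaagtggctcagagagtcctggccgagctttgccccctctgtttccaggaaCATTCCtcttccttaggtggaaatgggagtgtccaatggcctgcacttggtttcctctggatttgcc
TGFB1I1: tggaggggagCCAAATTTGGcttgggtgaa

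The SP/KLF motif occurred in at least 1 window of all 7 genes (12 of 14 windows, against 42.6% of the 35116 promoter windows in the table). The CArG box was found only for TGFB1I1 among the 7 (1 of 14 windows, against 1.16% of all windows). The TEAD motif was found for PXN and VCL (2 of 14 windows, against 11.9% of all windows). The AP-1 motif was found for BCAR1 (1 of 14 windows, against 4.2% of all windows). Some windows of TGFB1I1 overlap each other, so the same site can be counted more than once. The windows of VCL and TLN1 held the SP/KLF motif, as did those of all 7 genes, and neither held a CArG box or an AP-1 motif. VCL held the TEAD motif and TLN1 did not. All 250 bases of the TLN1 and ZYX windows are annotated as untranslated exon sequence in GENCODE 29. Most of the other windows also held such bases, among them 163 in the ILK window and 125 in the TGFB1I1 window with the CArG box. A match is a description of the sequence and not evidence of binding.

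Over all 8 libraries, PTK2 was the only one of the 10 genes called changed, and it was lower in the knockout libraries. That is 1 of 10 genes called, against 13.1% of all tested genes in either direction (7.02% higher and 6.1% lower), so the count itself is close to the background. At an unadjusted p under 0.05 there were 4 (PTK2, PXN, PARVA and ILK), against 29.7% of all tested genes. The groups were fully separated for 3 of the 10 genes (PTK2, PXN and ILK, each lower in the knockout libraries), against 22.9% of all tested genes in either direction and 10.4% in the lower one. The median change of the 10 was -0.09, beside 0.01 for all tested genes, and 6 of the 10 changes were negative.

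**Figure D1:**
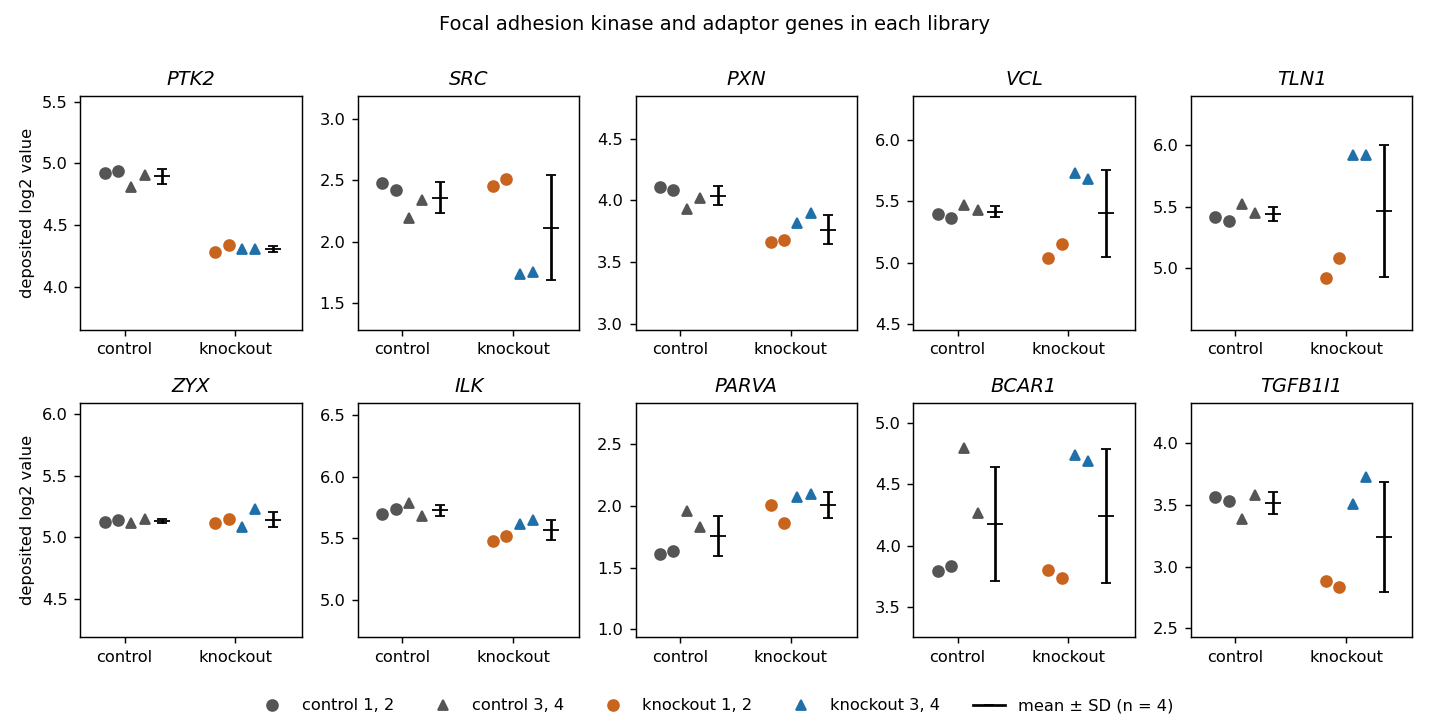
Deposited log2 value (vertical axis, every panel spanning the same range of log2 units) of each of the 10 genes in each control and knockout library; circles are replicates 1 and 2, triangles replicates 3 and 4, and the black bar is the mean ± SD (n = 4). PTK2 shows a tight lower group in the knockout libraries (4.28 to 4.34 against 4.81 to 4.94), whereas VCL, TLN1, SRC and TGFB1I1 split by knockout pair and BCAR1 splits by replicate set in both groups.

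PTK2 encodes FAK, the tyrosine kinase recruited when integrins cluster. PTK2 stood at 4.92, 4.94, 4.81 and 4.91 in control libraries 1 to 4 and at 4.28, 4.34, 4.30 and 4.31 in knockout libraries 1 to 4. Every knockout library lay below every control, and the knockout pairs that differed at so many other genes gave almost the same PTK2 value. The mean went from 4.89 ± 0.06 to 4.31 ± 0.02 (SD, n = 4 each), a log2 change of -0.59 ± 0.06 (SE; limma adjusted p = 0.00136). On the linear scale the transcript fell by 33.5%. Ordered by p-value it was gene 31 of 9016. Replicates 1 and 2 on their own gave -0.62 and replicates 3 and 4 gave -0.55. The call held in all 19 alternatives tried, with limma adjusted p-values from 1.88e-04 to 0.0315, the highest being with each knockout pair averaged to 1 library, where only 1.2% of all tested genes were called. With the replicate number as a block, where 10.2% of all tested genes were called, PTK2 was again the only one of the 10.

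The other tyrosine kinase of the FAK complex, SRC (chr20:37344699-37406050), did not follow PTK2. SRC was 2.48, 2.42, 2.19 and 2.34 in the controls and 2.45, 2.51, 1.74 and 1.76 in the knockouts. Knockout libraries 1 and 2 sat at the upper edge of the control range and knockout libraries 3 and 4 below all controls. The overall change of -0.24 ± 0.19 (SE) was not called (limma adjusted p = 0.436); it was 0.03 within replicates 1 and 2 and -0.52 within replicates 3 and 4 (limma adjusted p within the sets, 0.608 and 0.00428).

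ILK (chr11:6603774-6610870) and PARVA (chr11:12376436-12535356) encode partners in a complex that ties integrins to actin, and their small differences had opposite signs. ILK was 5.70, 5.74, 5.79 and 5.68 in the controls and 5.48, 5.52, 5.62 and 5.65 in the knockouts. The groups did not overlap, but the gap between knockout library 4 and control library 4 was narrow, and the change of -0.16 ± 0.07 (SE) was not called (limma adjusted p = 0.145). PARVA was 1.61, 1.64, 1.96 and 1.83 in the controls and 2.01, 1.86, 2.07 and 2.10 in the knockouts. Only knockout library 2 fell inside the control range, below control library 3, and the change of 0.25 ± 0.10 (SE) was not called (limma adjusted p = 0.121). Both changes kept their sign in each set of replicates: -0.22 and -0.10 for ILK, 0.31 and 0.19 for PARVA. With a term for replicates 1-2 against 3-4, where 25.2% of all tested genes were called, PARVA passed the threshold (limma adjusted p = 0.0230) and ILK did not (0.0758).

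Paxillin and Hic-5 are paralogs built from the same LD motifs and LIM domains, and PXN was the steadier of the pair in these libraries. PXN (chr12:120210447-120265730) was 4.11, 4.09, 3.93 and 4.02 in the controls and 3.66, 3.68, 3.82 and 3.90 in the knockouts. All knockout values lay below all controls, by little for libraries 3 and 4. The change was -0.27 ± 0.08 (SE), and its limma adjusted p of 0.0527 narrowly missed the threshold. Leaving out control library 3 or knockout library 4 brought it to 0.0412 and 0.0424, while leaving out any of the other 6 libraries gave 0.0801 to 0.147. TGFB1I1 (chr16:31472152-31477960) was 3.56, 3.53, 3.38 and 3.58 in the controls and 2.88, 2.83, 3.51 and 3.73 in the knockouts. Its mean difference of -0.28 ± 0.20 (SE; limma adjusted p = 0.388) came from knockout libraries 1 and 2 alone, which were below every control, whereas library 3 lay within the control range and library 4 above it. The changes within the sets were -0.69 and 0.13 for TGFB1I1 and -0.43 and -0.12 for PXN.

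TLN1 and VCL, the talin-vinculin link to actin, had knockout means close to the control means, with the knockout pairs on opposite sides of the controls. TLN1 (chr9:35696948-35732195) was 5.42, 5.38, 5.52 and 5.45 in the controls and 4.92, 5.08, 5.92 and 5.92 in the knockouts. VCL (chr10:73998116-74121363) was 5.40, 5.37, 5.47 and 5.43 in the controls and 5.04, 5.15, 5.73 and 5.68 in the knockouts. For both genes, knockout libraries 1 and 2 were below every control and knockout libraries 3 and 4 above every control. The overall changes were 0.02 ± 0.23 for TLN1 and -0.01 ± 0.16 for VCL (SE; limma adjusted p = 0.963 and 0.962). Within replicates 1 and 2 they were -0.40 and -0.28, and within replicates 3 and 4 they were 0.44 and 0.25. Such an opposite placement of both libraries of each set against their same-numbered controls was seen for 22.3% of all tested genes, and whether the sets differ for these genes was not tested.

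BCAR1, the docking protein p130Cas, differed by replicate set in both groups. BCAR1 (chr16:75228181-75268007) was 3.80, 3.84, 4.79 and 4.27 in the controls and 3.80, 3.74, 4.74 and 4.69 in the knockouts. Libraries 3 and 4 were higher than libraries 1 and 2 by 0.71 in the controls and 0.94 in the knockouts, and the groups overlapped almost completely (change 0.07 ± 0.30, SE; limma adjusted p = 0.908). ZYX, in contrast, was nearly constant. ZYX (chr7:143381345-143391111) was 5.13, 5.14, 5.11 and 5.15 in the controls and 5.11, 5.15, 5.08 and 5.23 in the knockouts, a change of 0.01 ± 0.06 (SE; limma adjusted p = 0.928) whose sign turned to -0.00164 under median centring.

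**Figure D2:**
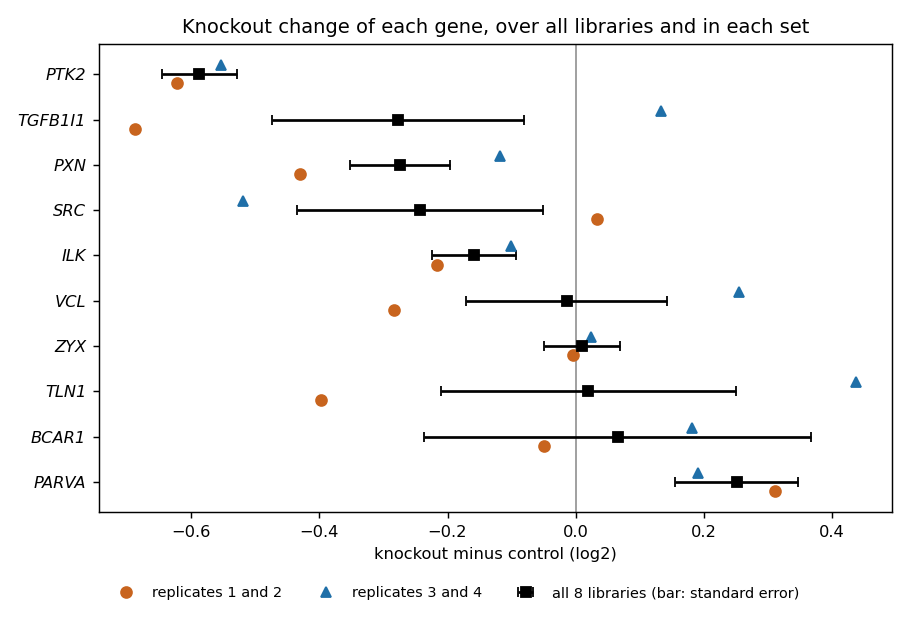
Knockout minus control (log2, horizontal axis) for each of the 10 genes: squares with bars are the estimate over all 8 libraries ± SE, circles the change within replicates 1 and 2, and triangles the change within replicates 3 and 4. For PTK2 the estimates lie together (-0.62, -0.59 and -0.55), whereas TLN1 and VCL have one on each side of 0.

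The spread within the knockout group was larger than within the controls for 8 of the 10 genes (against 71.0% of all tested genes), the exceptions being PTK2 and PARVA. The sign of the change differed between the sets for 6 of the 10 genes (SRC, VCL, TLN1, ZYX, BCAR1 and TGFB1I1), against 43.0% of all tested genes. Within replicates 1 and 2 alone, 7 of the 10 genes were called, 6 lower (PTK2, TLN1, VCL, ILK, PXN and TGFB1I1) and PARVA higher, against 59.7% of all tested genes (26.6% lower and 33.0% higher). Within replicates 3 and 4 alone, 4 were called, PTK2 and SRC lower and TLN1 and VCL higher, against 33.1% of all tested genes (17.4% lower and 15.7% higher). The share called in either direction was above the background by little in both sets, without a test. In replicates 1 and 2 the share called lower was further above it and the share called higher below it, also without a test. The residual spread in each set comes only from libraries that resemble each other closely.

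Exons of several of the genes overlap those of genes on the opposite strand in GENCODE 29, and whether counting used the strand is not given in the sources used here, so reads from such partners could not be told apart without it. ILK shares 2374 exonic bases with TAF10 (change 0.15, limma adjusted p = 0.209), VCL shares 1109 with AP3M1 (-0.11, limma adjusted p = 0.298) and PXN shares 918 with PXN-AS1. BCAR1 shares 788 with AC009078.3 on the same strand, where the strand would not tell the reads apart. No exon overlap with another gene was found for PTK2, SRC or PARVA.

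For the 4 genes of the list with the smallest adjusted p-values, the tested gene with the most similar pattern across the 8 libraries was identified by Pearson's r, as a description; the libraries share the groups and the close pairs. The nearest pattern to PTK2 was that of PITPNC1, a phosphatidylinositol transfer protein (r = 0.999 over 8 libraries), which fell by 0.96 (limma adjusted p = 7.90e-04). PXN was most like C14orf132 (r = 0.994), ILK most like PSAP (r = 0.991) and PARVA most like ERAL1 (r = 0.987).

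The remainder of the adhesion machinery was read from 6 lists with 124 genes in all, of which 95 were tested. Among these, 18 were called, 6 higher and 12 lower (18.9%, against 13.1% of all tested genes), with a median change of -0.08 beside 0.01 for all tested genes. All 18 had the same sign in both sets of replicates. A call over all 8 libraries favours such genes, so this is not separate evidence. The count depended on single libraries, as did the count over all tested genes (1183). It was 10 without control library 1 (444 over all tested genes), 10 without control library 2 (431) and 8 without control library 4 (391). With each knockout pair averaged to 1 library only ITGA5 and LPXN were still called (limma adjusted p = 0.0387 for each). In that fit 1.2% of all tested genes were called.

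The receptors stood at the lower end. Of 19 integrin subunits 11 were tested, and 6 were called, all lower, beside 6.1% of all tested genes called lower, with a median change of -0.43 and 10 of 11 changes negative. With each knockout pair averaged to 1 library, where 1.2% of all tested genes were called, ITGA5 alone of these 6 was still called. ITGB5, the beta subunit that pairs with alpha V, was 5.39, 5.37, 5.44 and 5.39 in the controls and 4.09, 4.25, 4.97 and 4.95 in the knockouts, a change of -0.83 ± 0.20 (SE; limma adjusted p = 0.0306). The fall was in all 4 knockout libraries and larger in libraries 1 and 2 (-1.21 within replicates 1 and 2, -0.46 within replicates 3 and 4). Its call was lost without any of the 4 control libraries or knockout library 2 (limma adjusted p up to 0.0860). ITGAV, alpha V itself, was 4.72, 4.63, 4.21 and 4.45 in the controls and 3.73, 3.85, 3.99 and 3.86 in the knockouts, with no overlap between the groups and a change of -0.65 ± 0.12 (SE; limma adjusted p = 0.0113; -0.89 and -0.41 in the sets of replicates). Chosen after their values were seen, the fibronectin receptor subunits ITGA5 and ITGB1 fell by 0.64 and 0.34 (limma adjusted p = 0.00409 and 0.0171, the latter lost without control library 1, 2 or 4, with adjusted p up to 0.0686).

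For the proteins directly under the receptors and for the kinases, the share called was close to the 13.1% of all tested genes or below it. In the integrin activation list 1 of 9 tested genes was called (11.1%): FERMT1, a kindlin that helps talin to activate integrins, fell by 0.53 (-0.33 and -0.74 in the sets; limma adjusted p = 0.0247; up to 0.0824 without control library 1, 2 or 4 or knockout library 3). None of the 5 tested genes of the ILK-PINCH-parvin list was called by limma. At an unadjusted p under 0.05 there were 0, against 29.7% of all tested genes. None had fully separated groups, against 22.9% of all tested genes. Among 16 tested kinases and phosphatases 2 were called (12.5%), both higher. LIMK2, which phosphorylates cofilin, rose by 0.39 (0.35 and 0.44 in the sets; limma adjusted p = 0.0140; up to 0.0592 without control library 1, 2 or 4). ABL2 rose by 0.30 (0.45 and 0.15 in the sets; limma adjusted p = 0.0439), a call lost with the replicate number as a block (0.0870) and without any single library other than knockout library 4 (up to 0.124).

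In the actin-linking and LIM-domain list 4 genes were called higher and 3 lower of 28 tested, beside 7.02% higher and 6.1% lower of all tested genes. With each knockout pair averaged to 1 library, where 1.2% of all tested genes were called, none of the 7 was still called. Their limma adjusted p-values in that fit ran from 0.0517 (AJUBA) to 0.140 (ENAH). Of these 7, ENAH, CSRP1, PDLIM7 and CTTN lost the call when single libraries were left out (limma adjusted p up to 0.115, 0.0553, 0.0662 and 0.0535): ENAH without any library other than knockout library 4, PDLIM7 without control library 1, 2 or 4, and CSRP1 and CTTN without control library 4. AJUBA and TRIP6, LIM proteins of the zyxin family, rose by 0.69 and 0.60 (limma adjusted p = 0.00789 and 0.00696), AJUBA by 0.92 and 0.47 in the sets of replicates and TRIP6 by 0.75 and 0.44. AJUBA was 2.81, 2.86, 2.89 and 2.88 in the controls and 3.72, 3.79, 3.37 and 3.34 in the knockouts, so that every knockout library exceeded every control, more so in libraries 1 and 2. FHL2, a LIM-only transcriptional cofactor found at adhesions, fell by 0.46, and CTTN, the SRC substrate cortactin, fell by 0.32 (limma adjusted p = 0.00969 and 0.0117), with changes in the sets of -0.36 and -0.55 for FHL2 and -0.29 and -0.35 for CTTN.

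**Figure D3:**
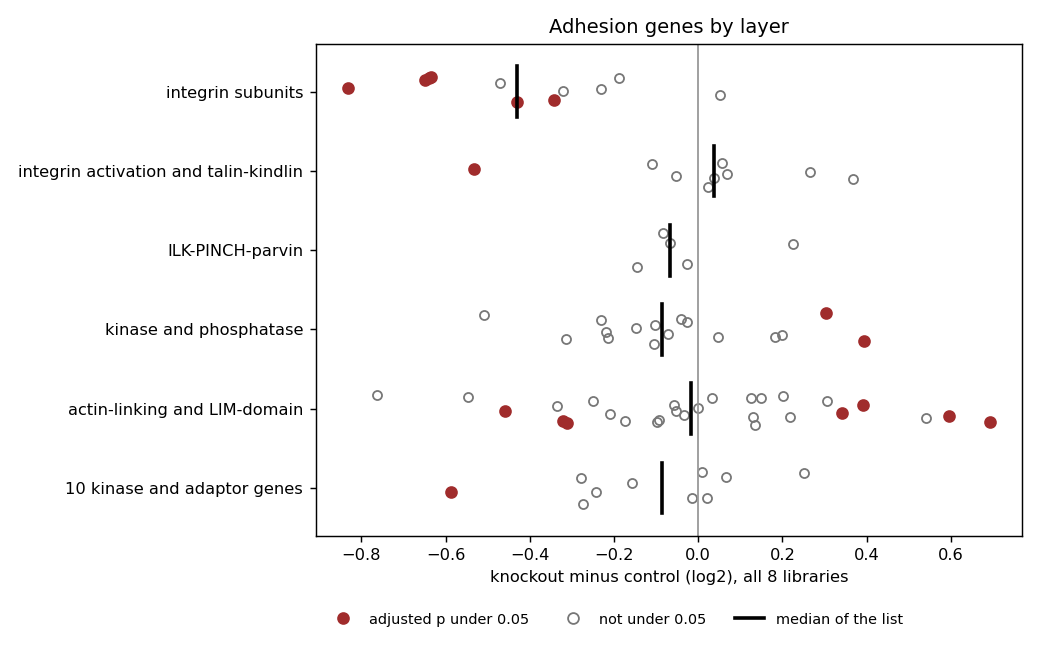
Knockout minus control over all 8 libraries (log2, horizontal axis) for the tested genes of 5 adhesion lists and for the 10 kinase and adaptor genes, with called genes filled (limma adjusted p under 0.05) and a bar at the list's median; vertical scatter within a row has no meaning. The integrin subunits lie mostly left of 0 (median -0.43, 6 of 11 called), and the 10 kinase and adaptor genes have PTK2 as the single filled point.

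Several of the 10 genes have paralogs on these lists, and those that were tested were set beside them after the values were seen. The listed paralogs PTK2B (of PTK2), LYN (of SRC), WTIP (of ZYX) and PARVG (of PARVA) were not tested. Neither were NEDD9, EFS and CASS4 (of BCAR1). In the paxillin family the third member, leupaxin (LPXN), was 2.51, 2.46, 2.83 and 2.64 in the controls and 1.64, 1.54, 1.89 and 1.86 in the knockouts. All 4 knockout libraries were well below all controls, a change of -0.88 ± 0.11 (SE; limma adjusted p = 0.00367), with changes of -0.90 and -0.86 in the sets of replicates, unlike TGFB1I1, whose sets took opposite signs. In the zyxin family, TRIP6 and AJUBA were called higher, LIMD1 (0.31) and LPP (0.20) were not called (limma adjusted p = 0.189 and 0.167), and ZYX differed by 0.01. The Src-family kinases FYN (-0.22) and YES1 (-0.15) were, like SRC, not called (limma adjusted p = 0.327 and 0.373). TLN2 took the same placement as TLN1, with changes of -0.16 and 0.69 in the sets of replicates, and PARVB (-0.15, limma adjusted p = 0.429) was at -0.40 in replicates 1 and 2 and 0.11 in replicates 3 and 4, against positive changes of PARVA in both. Differences between paralogs in their response were not tested.

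**Figure D4:**
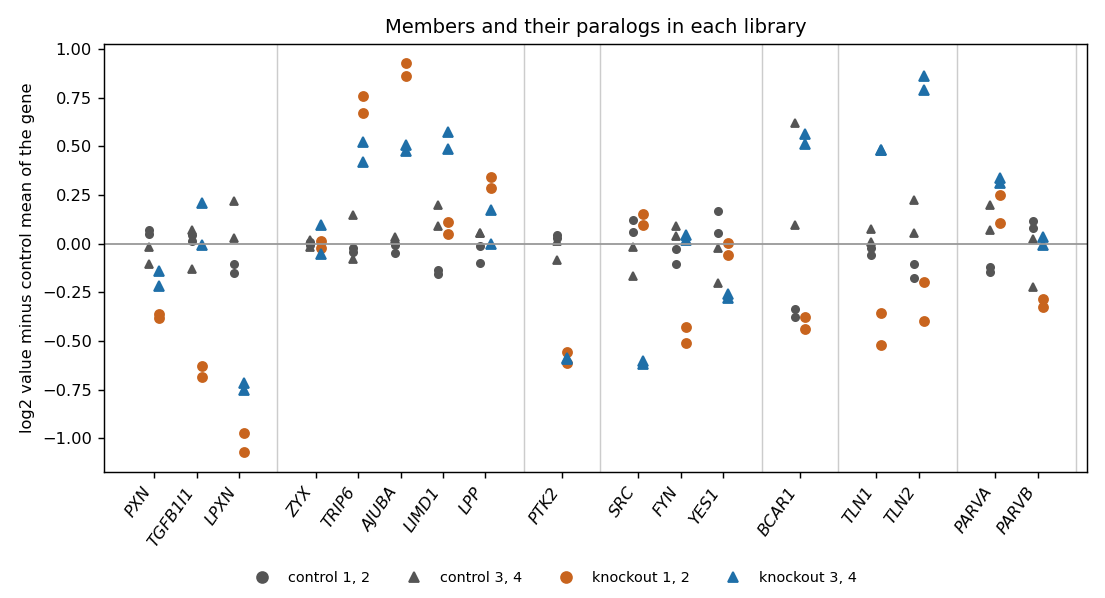
Log2 value minus the gene's control mean (vertical axis) in each library for the 10 genes other than VCL and ILK and for their tested paralogs, grouped by family; grey symbols are controls, coloured symbols knockouts, circles replicates 1 and 2 and triangles replicates 3 and 4. LPXN and PTK2 are below the controls in all 4 knockout libraries and TRIP6 and AJUBA above them, whereas TLN1 and TLN2 split by knockout pair.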

How the data were processed

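Total RNA of 143B cells was extracted with TRIzol and made into stranded libraries, per the labels' protocols. The authors deposited 1 table of log2 values per gene symbol and library; base 2 was inferred from the range. The submitters' processing notes name bcl2fastq, Partek 7.0 and GRCh38 without a role; aligner, counter and annotation are not given in the sources used here. All libraries share 1 mean, median, lowest and highest value, so the values were quantile normalized before deposit. No counts were analysed and depth is unknown. Blank cells were treated as missing.

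Groups and replicate numbers came from the titles. limma 3.58.1 in R 4.3.3 (eBayes without a trend) was fitted without covariates, as knockout minus control, to 9016 genes: those that had no blank cell and averaged 1 or more. The fit was also run on simulated data with independent noise in each library. Those data had no close knockout pairs, so that run cannot show how the pairs affect the calls. The members and lists were chosen with earlier results of these data known. From the 6 adhesion lists, the rule named, per list, the called genes that rose most (2) and fell most (2). The separate result of 1 list is not reported here. Deviations from the group means correlated across genes at 0.20 to 0.29 for the 4 same-numbered pairs. Pairs of other number within replicates 1-2 or 3-4 gave 0.11 to 0.31, so a pairing by number cannot be told from the sets. A fit with the replicate block stood beside the one without it. Other alternatives were no filter or a mean of 3, a pseudocount of 1, a robust variance trend, centring on the median, renewed quantile normalization, knockout pairs averaged, a term for or fits within the replicate sets, an adjusted p-value under 0.01 and leaving out each library. Coordinates and promoters came from RefSeq (GRCh38.p14) and exon overlaps from GENCODE 29.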

Additional observations from a re-analysis of the deposited data

Results flagged for a closer look

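VCL and TLN1 moved in opposite directions in the sets of replicates, with both knockout libraries of each set beyond both same-numbered controls. For VCL, replicates 1 and 2 gave a change of -0.28, against 0.25 in the other set. For TLN1 the values were -0.40 and 0.44. The difference between the sets was not tested, and 22.3% of all tested genes showed such a placement.

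In control library 3, LIMK2 (1.34) stood above the other 3 controls and CTTN (6.29) below them, each by a gap that took most of the group's range. These were 2 of 43 groups of 4 libraries examined, and chance marks about 1 in 20.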

How the results depend on the processing

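The fall of PTK2 kept its direction and its call in all 19 alternatives. PXN, ILK and PARVA kept their direction in every alternative run for them, and PXN passed the threshold in 7 of 19. The count of called genes among the 10 (1) was 2 with a mean of at least 3, a pseudocount of 1 or a variance trend (PTK2 and PXN in each), 3 with the term for replicates 1-2 against 3-4, 7 in replicates 1-2 alone and 4 in replicates 3-4 alone. It was 1 to 2 when 1 library was left out. With the replicate block it was 1. Over all tested genes the count (1183) was 924 with the replicate block, 729 with a mean of at least 3 (fewer genes tested), 108 with knockout pairs averaged, 2274 with the term, 5380 and 2987 within the sets, 272 at an adjusted p under 0.01 and 391 to 1353 when 1 library was left out, the lowest without control library 4 (391), 2 (431) or 1 (444), and 716 without knockout library 3. The other adhesion genes called (18) numbered 15 with the replicate block, all among the 18 (ABL2, ITGA3 and PDLIM7 were lost), 2 with pairs averaged, 28 with the term, 63 and 32 within the sets, 5 at an adjusted p under 0.01 and 8 to 22 when 1 library was left out. The replicate block changed no call of the 10 genes.

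Reversed signs concerned genes not called over all 8 libraries. In replicates 1-2 alone, SRC turned to 0.0332, TLN1 to -0.40, ZYX to -0.00354 and BCAR1 to -0.0501; in replicates 3-4 alone, VCL turned to 0.25 and TGFB1I1 to 0.13. ZYX was -0.00164 with median centring. When 1 library was left out the ranges were -0.12 to 0.11 for VCL, -0.13 to 0.20 for TLN1, -0.0185 to 0.0305 for ZYX, -0.10 to 0.27 for BCAR1 and -0.54 to 0.52 for NELL1. With the blank NELL1 cell at the lowest value of its library, the NELL1 difference moved from -0.01 to -1.16, not past the threshold (exact permutation test, p = 0.543). The cause of these differences was not tested. Depth is unknown, so no counting limit can be given.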
